A study of Mus musculus with 4 samples.

Results

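The chondrocytes with high Ucma in the endosteal digest of mouse long bones, called Ucma cells here, numbered 808 of the 17941 cells that passed the quality limits in the libraries of 1-, 1.5- and 3-month-old mice, and of the 24084 such cells in all 4 libraries of the series. They were chosen on measured UMIs, each UMI being 1 tagged RNA molecule. Levels are given as CPM, on which scale 100 CPM equal 1 UMI per 10000. A cell was kept if it held 200 to 6000 genes and no more than 5% of its UMIs were mitochondrial. A kept cell counted as a chondrocyte if its Col2a1 UMIs exceeded its Col1a1 and its Cxcl12 UMIs, Col2a1 reached 100 per 10000 UMIs, Sox9 had at least 1 UMI and Ptprc had 0. A chondrocyte entered the Ucma cells if Ucma reached 20 per 10000, Ihh had 0 UMIs, Col10a1 was below 100 per 10000, and Mki67 plus Top2a had fewer than 3 UMIs. The levels of these genes therefore describe the choice and are no finding. Because the limits were set on the same cells, and because each age had 1 library, no difference below carries a test.

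The growth plate is the cartilage in which long bones lengthen. Its resting zone holds small, slowly dividing chondrocytes that keep the columns below supplied, its proliferative zone holds stacks of flat dividing cells, and its hypertrophic zone holds swollen cells that make collagen X and Indian hedgehog before mineral is laid down. Indian hedgehog (Ihh) and parathyroid hormone-related protein (Pthlh), the latter made in the resting zone, form a loop that sets how long chondrocytes keep dividing. Ucma is a secreted, vitamin K-dependent matrix protein known from the upper growth plate and from young cartilage, and Sox9 is the transcription factor that holds the chondrocyte state.

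All 4 groups were male Col2/Td mice of strain B6SJL/F1, which carry Col2-Cre, driven by a type II collagen promoter, and a Rosa26 lsl-tdTomato reporter, so that a cell is marked if it or an ancestor once used that promoter. No group was treated. The groups differed in age, and 1 library was made per age from pooled mice, 2 at 1 month (1M) and 3 each at 1.5, 3 and 16 months (1.5M, 3M, 16M). The epiphyses were cut off and the marrow flushed out before the metaphyseal fragments were digested, and the digest was sorted for tomato-positive cells or, where no peak stood out, for the brightest 1% of cells. The number of chondrocytes therefore depends on where the bone was cut and on the gate as well as on the animal. The study asked which mesenchymal cells the endosteal marrow holds.

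The 3 libraries with Ucma cells held 108227184, 63258961 and 32672631 UMIs at 1M, 1.5M and 3M before filtering. After filtering, the median cell had 10279.5 UMIs at 1M, 9621 at 1.5M, 6264 at 3M and 9670 at 16M. The median Ucma cell had 11833, 12970 and 7600 UMIs and 2851.5, 2943 and 2067 genes at 1M, 1.5M and 3M. RNA of blood cells was present in chondrocytes and differed in amount between libraries. The 10 neutrophil genes on the list, all with UMIs in each library, summed to 12557 CPM at 1M, 231 at 1.5M and 2075 at 3M in Ucma cells, against 197494, 99556 and 185585 in the cells with Ptprc UMIs, the leukocyte reference of the same libraries (4411, 55 and 782 cells, with median depths of 11674, 11320 and 6373 UMIs). At 1.5M the leukocyte reference was itself small and held 10138 CPM of Col2a1, so levels in it are no clean background there. The libraries shared 61 (1M and 1.5M), 49 (1M and 3M) and 30 (1.5M and 3M) cell barcodes, and 1 barcode was a Ucma cell at both 1M and 1.5M. A doublet score marked 7 of 184, 18 of 505 and 2 of 119 Ucma cells, which were kept.

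Ucma cells made up 184 of 8308 cells at 1M (2.21%, Clopper-Pearson 95% interval 1.91 to 2.55), 505 of 5453 at 1.5M (9.26%, 8.50 to 10.1) and 119 of 4180 at 3M (2.85%, 2.36 to 3.40). As a share of all chondrocytes they were 184 of 338 at 1M (54.4%, 49.0 to 59.8), 505 of 1928 at 1.5M (26.2%, 24.2 to 28.2) and 119 of 772 at 3M (15.4%, 12.9 to 18.2). The share among chondrocytes was lowest in the oldest of the 3 libraries while the share among all cells was highest at 1.5M. All intervals here and below cover counting error only, and with 1 library per age the sort, the cut and the age cannot be told apart. The other chondrocytes fell into 3 classes, which serve as comparisons. Ucma-low cells met every limit but that on Ucma (101, 492 and 379 cells at 1M, 1.5M and 3M). Cycling cells had 3 or more Mki67 plus Top2a UMIs, without meeting the next limits (14, 155 and 32 cells). Ihh Col10a1 cells had an Ihh UMI or Col10a1 at or above 100 per 10000 (39, 776 and 242 cells).

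The 16M library held 4 chondrocytes of 6143 filtered cells and 0 Ucma cells, which allows a share of up to 0.0488% (3 counts of 6143). These 6143 were left of 9229 barcodes by the quality limits, which kept 8308 of 8417 at 1M. Its filtered cells held 16169 Col2a1 UMIs and 1095 Ucma UMIs among 67716907. It is not used further.

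The name resting zone was checked against markers other than Ucma (chosen with earlier results known), and it was borne out in part. Sfrp5, a secreted Wnt inhibitor known from the resting zone, stood at 213 CPM (194 to 232) at 1M, 95 CPM (87.7 to 103) at 1.5M and 34.8 CPM (23.8 to 49.1) at 3M in Ucma cells. In Ihh Col10a1 cells it stood at 1.44 at 1M, 7.48 at 1.5M and 0.425 at 3M, far lower in each library. In Ucma-low cells it stood at 217 at 1M, 41.8 at 1.5M and 9.20 at 3M, so that at 1M it did not separate Ucma-high from Ucma-low cells. Matn3, a matrilin of the cartilage matrix, stood at 2795 at 1M, 3357 at 1.5M and 2162 at 3M in Ucma cells. The level was 2099.6 at 1M, 2599.8 at 1.5M and 1739.7 at 3M in Ucma-low cells. It was higher in the Ucma cells of each library by a modest margin, with log2 ratios of 0.41 (0.35 to 0.48) at 1M, 0.37 (0.34 to 0.40) at 1.5M and 0.31 (0.24 to 0.39) at 3M. Cytl1, a small secreted protein of cartilage, had no steady direction against Ucma-low or Ihh Col10a1 cells and did not bear out the name there. It stood at 72.4 at 1M, 111 at 1.5M and 789.7 at 3M in Ucma cells. The level was 80.4 at 1M, 187 at 1.5M and 682 at 3M in Ucma-low cells and 165 at 1M, 79.2 at 1.5M and 2382 at 3M in Ihh Col10a1 cells, where the 3M value was the highest of all classes.

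Of the 15 genes on the resting zone list, 6 besides the rule genes reached 50 CPM in 1 of the 2 classes in every library. Of these, none passed the 2-fold limit against Ucma-low cells in either direction, with a median log2 ratio of 0.05 beside 0.02 over all genes compared. Against Ihh Col10a1 cells, 2 of 6 were at least 2-fold higher in every library, beside 1.08% of all genes compared: Clu, an extracellular chaperone, at 255, 170.0 and 101 against 31.6, 72.9 and 18.7 CPM, and Apoe, a lipid carrier, at 1354, 462 and 695 against 243, 221 and 133 CPM. Apoe was higher in the leukocyte reference of each library (1369, 3162 and 2513 CPM), and the part of free RNA in its level was not tested. Pthlh, the resting zone signal itself, was sparse, at 18.1, 10.0 and 2.17 CPM in Ucma cells and 19.4, 4.78 and 0.92 in Ucma-low cells. Foxa2, a transcription factor on the same list, was lower in Ucma than in Ucma-low cells in each library (2.15, 13.2 and 9.78 against 5.21, 25.8 and 26.7 CPM). The cells are therefore named by the gene that chose them.

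Per cell, a Sfrp5 UMI was found, after thinning every cell to 3000 UMIs, in 25.0% (18.9 to 31.9) at 1M, 15.2% (12.2 to 18.7) at 1.5M and 8.62% (4.21 to 15.3) at 3M of Ucma cells, and in 20.8%, 5.69% and 1.86% of Ucma-low cells and 0.748%, 3.64% and 0.141% of the leukocyte reference. The unthinned shares were 42.4%, 24.8% and 8.403% in Ucma cells. Thinning left out 3 shallower Ucma cells at 3M and none at 1M or 1.5M. A Pthlh UMI was found in 4.89% (2.26 to 9.08) at 1M, 2.77% (1.52 to 4.61) at 1.5M and 1.72% (0.209 to 6.09) at 3M of thinned Ucma cells, against 0.635%, 0% and 0.282% of the reference, where 0 of 55 cells at 1.5M allows a share of up to 5.45% (3 counts of 55). Most Ucma cells thus carried no UMI of either gene at this depth. The tomato transcript gave a UMI in every unthinned Ucma cell, with medians of 23.6, 20.7 and 31.4 per 10000 UMIs. Its level was 2535 CPM at 1M, 2249 at 1.5M and 3327 at 3M in Ucma cells and 2647 CPM at 1M, 2137 at 1.5M and 2320.2 at 3M in the leukocyte reference, so cells with Ptprc UMIs carried reporter RNA too.

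The limit on Ucma cut a continuous range. Ucma itself had medians of 44.1, 33.0 and 33.9 and highest values of 137, 129 and 131 per 10000 UMIs over the Ucma cells of 1M, 1.5M and 3M. Just inside the limit, from 20 to 22 per 10000, lay 13, 51 and 14 cells, and just outside it, from 18 to 20, lay 11, 63 and 18. Inside and outside, Matn3 stood at 3440.1, 3125 and 1911 against 2626, 2906 and 2178 CPM. Ccnd1 stood at 74.5, 47.8 and 76.1 against 92.3, 56.6 and 99.3, and Pth1r at 422, 795 and 865 against 759.5, 904 and 1439.9. Panx3 stood at 49.7, 149 and 95.1 against 163, 232 and 106 and Sfrp5 at 62.1, 14.1 and 66.6 against 440.1, 36.9 and 7.09.

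Gene coordinates below are those of the GENCODE annotation on GRCm38. What else differed between chondrocytes with much and with little Ucma was asked by comparing summed UMIs of Ucma and Ucma-low cells within each library. A gene was compared if it reached 50 CPM in 1 of the 2 classes in every library, and it passed if it was at least 2-fold apart, in the same direction, in all 3. Where listed genes are said below to share a direction short of 2-fold, the share of all genes that did so is not given. Of 2001 genes, 3 passed upwards (0.150%) and 9 downwards (0.450%), so few genes were this far apart in every library. Those higher were Ucma itself, which the rule fixed, Ccnd1 and M1ap. Those lower were Panx3, Mef2c, Smpd3, Ibsp, Hspb1, Grb14, Cdkn1c, Tnni2 and Sgms2. Dropping a library changed these counts: 10 were higher without 1M and 8 without 1.5M, and 20 were lower without 1.5M. Median depth was close in the 2 classes, at 11833 against 13151 UMIs at 1M, 12970 against 13692 at 1.5M and 7600 against 8351 at 3M.

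Ucma (chromosome 2, 4976122 to 4985748, plus strand) stood at 4836 CPM at 1M, 3743 at 1.5M and 3861 at 3M in Ucma cells. The level was 1048 at 1M, 1159 at 1.5M and 709 at 3M in Ucma-low cells, 3007 at 1M, 2353 at 1.5M and 1386 at 3M in cycling cells and 1765 at 1M, 1169 at 1.5M and 287 at 3M in Ihh Col10a1 cells. The leukocyte reference held 68.7 CPM at 1M, 259 at 1.5M and 22.3 at 3M. No limit on Ucma applied to cycling or Ihh Col10a1 cells. The limit on Ucma divided Ucma from Ucma-low cells, so the order of the classes follows in part from the rule and is no finding.

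Ccnd1 (chromosome 7, 144929931 to 144939925, minus strand), the G1 cyclin D1, stood at 103 CPM (89.9 to 116) at 1M, 88.9 CPM (81.9 to 96.4) at 1.5M and 134 CPM (111 to 159) at 3M in Ucma cells. In Ucma-low cells it stood at 47.7 CPM (36.7 to 60.9) at 1M, 37.2 CPM (32.6 to 42.2) at 1.5M and 47.8 CPM (40.6 to 55.9) at 3M. The intervals of the classes did not overlap in any library, and the log2 ratios were 1.10 (0.70 to 1.53) at 1M, 1.26 (1.04 to 1.48) at 1.5M and 1.48 (1.13 to 1.83) at 3M. Ccnd1 was also lower in cycling cells (68.8, 50.7 and 50.1 CPM), in Ihh Col10a1 cells (25.9, 23.6 and 10.2) and in the leukocyte reference (11.9, 29.97 and 19.0) than in the Ucma cells of the same library. Mki67, which the rule used, stood at 12.9, 4.55 and 6.52 CPM in Ucma cells against 219, 199 and 237 in cycling cells.

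M1ap (chromosome 6, 82946902 to 83030309, plus strand), a gene known from meiosis in the testis, stood at 674 CPM at 1M, 573 at 1.5M and 671 at 3M in Ucma cells. It stood at 234 at 1M, 274 at 1.5M and 173 at 3M in Ucma-low cells and 332 at 1M, 178 at 1.5M and 81.7 at 3M in cycling cells. Its log2 ratio over Ucma-low cells was 1.53 (1.35 to 1.71) at 1M, 1.06 (0.98 to 1.15) at 1.5M and 1.957 (1.79 to 2.12) at 3M. With 13.8, 65.4 and 6.75 CPM in the leukocyte reference M1ap was lower there than in the Ucma cells of each library.

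The other 13 of the 15 genes that led the ranking by the smallest of their 3 log2 ratios fell short of 2-fold in at least 1 library. Among secreted and matrix genes, Loxl2, a lysyl oxidase that cross-links collagen, stood at 473, 287 and 316 CPM in the Ucma cells and 241, 172 and 136 in the Ucma-low cells of 1M, 1.5M and 3M. C1qtnf3, a secreted relative of adiponectin, stood at 246, 1018 and 164 against 156, 627 and 72.3. R3hdml stood at 1145, 404 and 727 against 449.9, 236 and 253 and Pla2g5, a secreted phospholipase, at 178, 186 and 330.2 against 64.1, 94.9 and 155. All 4 were higher in the Ucma cells of each library.

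Imprinted noncoding RNAs were among them. Meg3 stood at 1636 CPM at 1M, 984 at 1.5M and 1073 at 3M in Ucma cells. The level was 1067 at 1M, 396 at 1.5M and 216 at 3M in Ucma-low cells, with log2 ratios of 0.62, 1.31 and 2.31 in that order. H19 stood at 865 at 1M, 573 at 1.5M and 205 at 3M against 501 at 1M, 360.4 at 1.5M and 87.4 at 3M. Unlike Meg3, which was lower in cycling cells (595, 367 and 200.3), H19 was higher in cycling than in Ucma cells in each library (1044, 644 and 348), where the cycling cells of 1M were 14.

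The membrane and signalling genes of this group were Hhip, a decoy receptor for hedgehog ligands, at 65.5, 63.0 and 78.2 against 36.5, 24.5 and 31.9 CPM. F3, the coagulation receptor tissue factor, stood at 53.8, 73.8 and 268 against 17.9, 44.6 and 101. Ddah1, which degrades methylated arginines, stood at 259, 145 and 125 against 138, 68.0 and 18.7. Tm4sf1 stood at 429.9, 403 and 698 against 291, 273 and 329. Fxyd6, a regulator of the sodium pump, stood at 287, 237 and 257 against 163, 112 and 95.02. The tubulin gene Tubb2b stood at 80.1, 61.5 and 56.5 against 43.9, 21.0 and 10.1 and the sulfatase Arsi at 113, 97.0 and 73.9 against 34.3, 54.6 and 20.2. For Ddah1, Tubb2b and Meg3 the ratio was largest at 3M, as for all of the highest-ranking genes but Pla2g5, Hhip and F3.

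**Figure D1:**
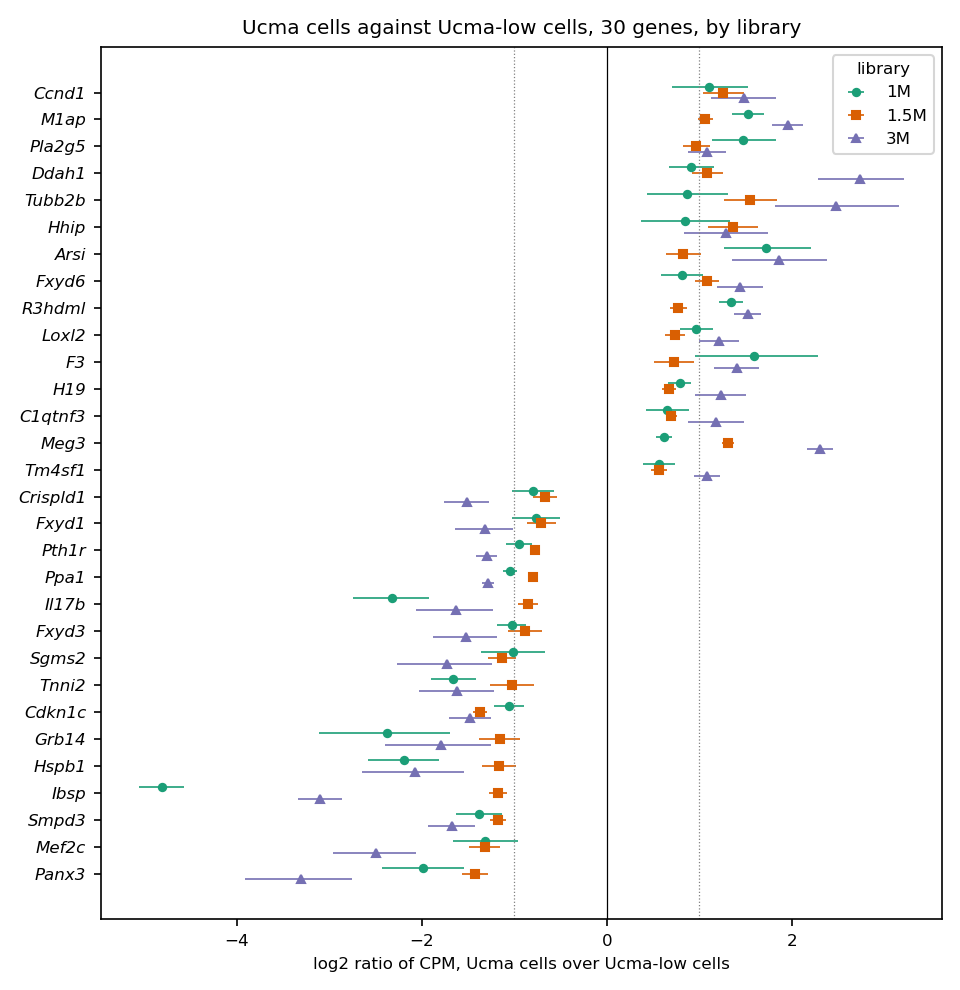
Log2 ratio of CPM in Ucma cells over Ucma-low cells (x axis) for the 15 highest- and the 15 lowest-ranking genes (y axis), 1 point per library with its 95% counting interval. Every point of Ccnd1 and M1ap lies above 1 and every point of Panx3, Mef2c and Ibsp below -1.

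The genes lower in Ucma cells were led by genes of maturing and mineralizing chondrocytes. Panx3 (chromosome 9, 37659902 to 37669235, minus strand), a channel of prehypertrophic chondrocytes and osteoblasts, stood at 27.1 CPM (20.9 to 34.7) at 1M, 91.1 CPM (83.9 to 98.6) at 1.5M and 29.3 CPM (19.3 to 42.7) at 3M in Ucma cells. It stood at 107 CPM (90.5 to 126) at 1M, 244 CPM (232 to 256) at 1.5M and 289.6 CPM (271 to 309) at 3M in Ucma-low cells, at log2 ratios of -1.98, -1.42 and -3.30 for 1M, 1.5M and 3M. Its levels ordered the classes in each library, lowest in Ucma, then Ucma-low, then Ihh Col10a1 cells (273 CPM at 1M, 466 at 1.5M and 544 at 3M).

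Mef2c, the transcription factor that drives hypertrophy, stood at 49.5 CPM at 1M, 65.3 at 1.5M and 48.9 at 3M in Ucma cells. The level was 123 at 1M, 163 at 1.5M and 276 at 3M in Ucma-low cells (log2 ratios -1.31, -1.32 and -2.50), with 90.6, 116 and 80.4 in the leukocyte reference. Ibsp, a bone matrix sialoprotein, stood at 64.2 at 1M, 185 at 1.5M and 162 at 3M against 1799 at 1M, 417 at 1.5M and 1385 at 3M (log2 ratios -4.81, -1.17 and -3.10). Among the Ucma-low cells of 1M just outside the limit Ibsp stood at 5693 CPM over 11 cells.

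Smpd3, a sphingomyelinase needed for mineralization, stood at 97.8, 251 and 159 CPM in the Ucma and 254, 569 and 506 in the Ucma-low cells of 1M, 1.5M and 3M, and Sgms2, which makes sphingomyelin, at 57.3, 78.0 and 39.1 against 115, 171 and 129.7. Cdkn1c, the cell cycle inhibitor p57, stood at 249 at 1M, 326 at 1.5M and 187 at 3M against 518 at 1M, 844 at 1.5M and 519 at 3M, and at 1194 at 1M, 2424 at 1.5M and 1409 at 3M in Ihh Col10a1 cells. Its log2 ratios over Ucma-low cells were -1.06 (-1.22 to -0.89) at 1M, -1.37 (-1.44 to -1.30) at 1.5M and -1.47 (-1.71 to -1.25) at 3M, so that the Ucma cells held less of this inhibitor and more Ccnd1. The remaining 3 were the small heat shock gene Hspb1 (34.5, 53.6 and 33.7 against 158, 120.0 and 141 CPM), the receptor adaptor Grb14 (10.3, 38.1 and 31.5 against 53.6, 84.8 and 109) and the troponin gene Tnni2 (96.1, 33.5 and 61.9 against 303, 68.0 and 189.7).

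Of the 16 genes on the hypertrophic list, 6 were compared besides the rule genes. Of these, 3 were at least 2-fold lower in every library (Panx3, Mef2c, Ibsp), beside 0.450% of all genes, and none higher, with a median log2 ratio of -1.37 against 0.02 over all genes. Pth1r, the receptor for parathyroid hormone-related protein, was lower in each library but short of 2-fold in 2 of them, at 335 CPM at 1M, 631 at 1.5M and 745 at 3M against 649 at 1M, 1079 at 1.5M and 1831 at 3M, with log2 ratios of -0.95, -0.77 and -1.30. Alpl, the phosphatase of mineralizing cells, stood at 226, 209 and 175 against 429, 293 and 562. Spp1, osteopontin, had no steady direction, at 2726, 1299 and 2026 against 6114, 1834 and 1440.0. Ppa1, a pyrophosphatase, stood at 1143, 2808 and 2448 against 2353, 4871 and 5955, lower in the Ucma cells of each library.

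Among the other genes of the 15 lowest, Fxyd3, Il17b, Fxyd1 and Crispld1 were also lower in the Ucma cells of each library without reaching 2-fold in all 3.

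The same genes were followed in bins of Ucma per 10000 UMIs, the measure that the rule used, as a description. Over the bins under 10, 10 to 20, 20 to 40 and 40 to 80, Ccnd1 went through 40.1, 58.7, 90.4 and 111 CPM at 1M, 24.0, 46.0, 75.2 and 110.1 CPM at 1.5M and 37.9, 79.1, 135 and 135 CPM at 3M. Panx3 went through 111, 111, 33.4 and 25.6 CPM at 1M, 290.2, 214, 113 and 53.1 CPM at 1.5M and 309.5, 167, 38.9 and 13.5 CPM at 3M. Ccnd1 was thus higher in both bins above 20 than in both below in each library, and Panx3 lower. Meg3 went through 862, 1138, 1350.4 and 1758 CPM at 1M, 349.8, 419.5, 802 and 1274 CPM at 1.5M and 159, 405, 946 and 1339 CPM at 3M, each bin above the one before. Matn3 went through 1978, 2343, 2868 and 2722 CPM at 1M, 2371, 2775, 3172 and 3711 CPM at 1.5M and 1709, 1871, 2143 and 2157 CPM at 3M, a shallower slope. Sox9, which the rule required, went through 515, 456, 498 and 399.8 CPM at 1M, 620.4, 622, 645 and 656 CPM at 1.5M and 742, 854, 908 and 919 CPM at 3M, with no direction shared by the libraries. Sfrp5 was highest in the last of these 4 bins at 1.5M (35.2, 34.7, 65.0 and 141 CPM), 3M (7.99, 14.8, 22.01 and 64.2 CPM) and 1M (211, 227, 144 and 285 CPM), with no steady order at 1M. The 10 cells at 0 Ucma held still more of it at 1.5M, 551 CPM (406 to 730). These 4 bins held 46 to 86 cells each at 1M, 157 to 330 at 1.5M and 39 to 222 at 3M, and the bins at 0 and at 80 and over held 4 and 17 cells at 1M, 10 and 18 at 1.5M and 42 and 4 at 3M.

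**Figure D2:**
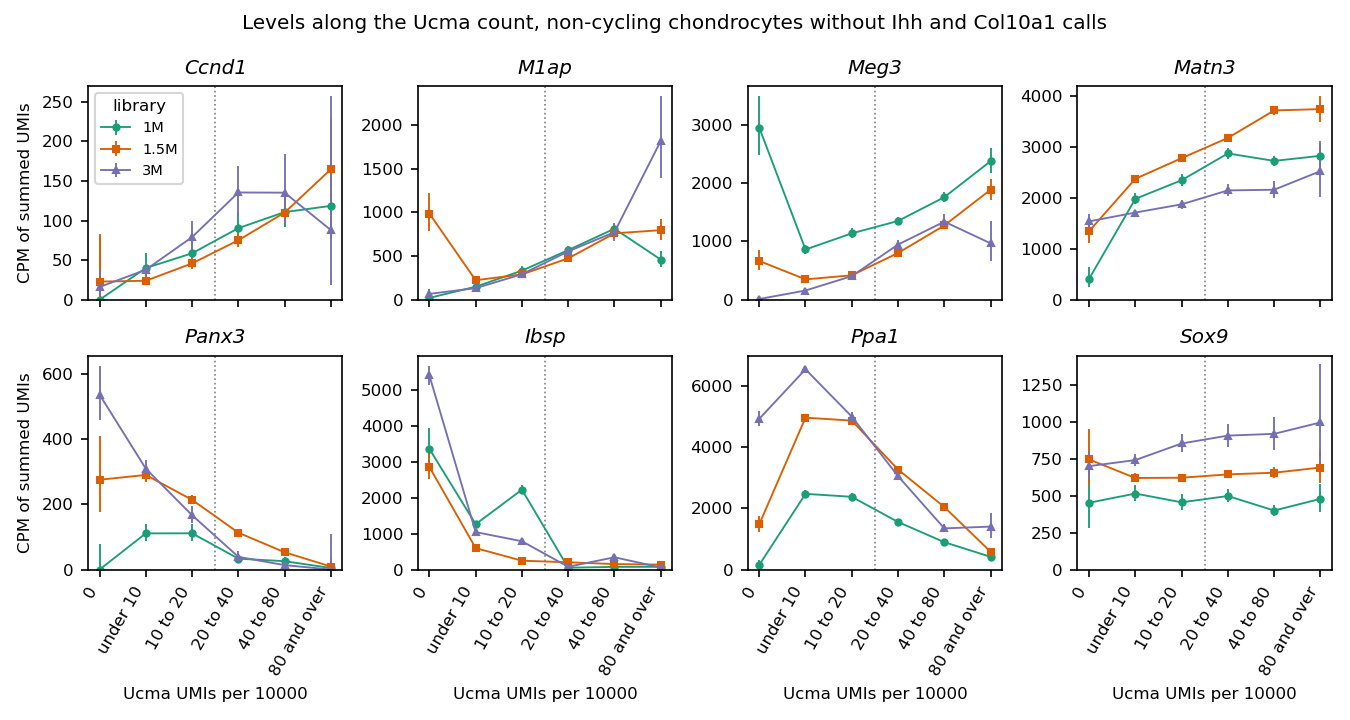
CPM of summed UMIs (y axis) of 8 genes in 6 bins of Ucma UMIs per 10000 (x axis) among chondrocytes outside the cycling and Ihh Col10a1 classes, 1 line per library with 95% counting intervals. Ccnd1, M1ap and Matn3 slope up and Panx3, Ibsp and Ppa1 down between the bins under 10 and 40 to 80, and the wide intervals lie at 0 and at 80 and over, where a library held as few as 4 cells.

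The PTHrP and hedgehog loop was searched through 14 genes. Of these, 3 (Pth1r, Ptch1, Hhip) reached 50 CPM in every library, and 0 of 3 passed against Ucma-low cells. Ptch1, the hedgehog receptor and a target of the pathway, stood at 71.1 CPM at 1M, 80.3 at 1.5M and 106 at 3M in Ucma cells. The level was 82.7 at 1M, 88.5 at 1.5M and 117 at 3M in Ucma-low cells and 34.5 at 1M, 50.04 at 1.5M and 44.2 at 3M in Ihh Col10a1 cells, and was the lowest of the chondrocyte classes in the one chosen in part by the ligand Ihh. Hhip was likewise lowest of the chondrocyte classes there, at 7.19 at 1M, 9.83 at 1.5M and 3.40 at 3M, and passed 2-fold upwards in Ucma over Ihh Col10a1 cells while Pth1r passed downwards. Gli1, another target, was sparse, at 9.05, 9.41 and 10.9 CPM in Ucma cells and 4.31, 4.54 and 2.12 in Ihh Col10a1 cells. Gas1, a hedgehog co-receptor, stood at 21.5, 21.7 and 3.26 in Ucma and 38.7, 52.9 and 11.6 in Ucma-low cells, against 22.8, 23.2 and 22.1 in the leukocyte reference, and its level in Ucma cells was not above that reference.

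Of the 11 secreted Wnt inhibitors, 1, Wif1, could be compared against Ucma-low cells. Its direction differed between libraries: it stood at 550.1 CPM at 1M, 90.3 at 1.5M and 168 at 3M in Ucma cells. The level was 797 at 1M, 129 at 1.5M and 80 at 3M in Ucma-low cells. Notum, which strips the lipid from Wnt proteins, stood at 88.3 at 1M, 40.5 at 1.5M and 66.3 at 3M against 93.8 at 1M, 31.0 at 1.5M and 32.5 at 3M. Frzb was lower in the Ucma cells of each library, at 8.62, 12.7 and 1.09 against 87.1, 31.3 and 40.2 CPM, and did not reach 50 CPM in every library. Lef1, a nuclear factor of the Wnt pathway, stood at 50.8, 33.2 and 59.7 against 24.6, 21.1 and 38.3, higher in each library yet under the level for comparison in some. Wnt4 was the ligand with the most UMIs, at 92.6, 104 and 182 against 101, 145 and 249.

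Of 22 BMP and TGF-beta ligands, receptors and targets, 5 were compared against Ucma-low cells and 0 passed, while all 5 were lower in each library, among them the BMP target Id3 (194, 291 and 104 against 237, 362 and 226 CPM). Their median log2 ratio was -0.46, beside 0.02 over all genes. Bmp7 lay under the level for comparison at 1M, but it stood higher in the Ucma cells of every library, at 45.2 CPM (37.0 to 54.8) at 1M, 66.9 CPM (60.8 to 73.5) at 1.5M and 90.2 CPM (71.8 to 112) at 3M. Ucma-low cells stood at 14.9 at 1M, 32.9 at 1.5M and 41.1 at 3M. The log2 ratios were 1.60, 1.03 and 1.13. The receptor Tgfbr2 stood at 67.2, 44.2 and 66.3 against 24.6, 29.2 and 24.8, higher in each library with log2 ratios of 1.45, 0.60 and 1.42. Tgfbr2 lay under the level for comparison at 1.5M. How the other listed genes under that level stood against Ucma-low cells is not given. Of 12 BMP antagonists, 2 were compared against Ucma-low cells, and none passed. Nog, noggin, passed against Ihh Col10a1 cells, at 15.9, 34.4 and 25.0 against 66.1, 112 and 106 CPM.

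Of 18 FGF and IGF genes, 4 were compared and 0 passed against Ucma-low cells. Fgfr3, the receptor that restrains growth plate chondrocytes, stood at 95.2 CPM at 1M, 172 at 1.5M and 99.9 at 3M in Ucma and 92.4 at 1M, 224 at 1.5M and 131 at 3M in Ucma-low cells. Igfbp7, a secreted binding protein, stood at 3782 at 1M, 1911 at 1.5M and 2892 at 3M against 2768 at 1M, 1205 at 1.5M and 1173 at 3M and 997 at 1M, 776 at 1.5M and 659.9 at 3M in Ihh Col10a1 cells. It passed 2-fold over the last of these in every library.

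No compared cartilage matrix gene outside the rule passed between Ucma and Ucma-low cells. Over all genes only 0.150% passed upwards and 0.450% downwards, so the counts of 0 below say little. Of 11 cartilage collagens, 9 were compared and 0 passed, with a median log2 ratio of -0.03 beside 0.02 over all genes. Of 29 matrix proteins listed, 28 of them found, 22 were compared and 0 passed, with a median of -0.17. Of these 22, 10 were lower and 5 higher in the Ucma cells of each library. Of 13 columnar chondrocyte genes, 12 were compared and 0 passed, with a median of -0.29, and 7 of the 12 were lower in each library. Among these were Acan, aggrecan, at 2424, 2753 and 2776 against 2967, 3309 and 3193 CPM, and Chad, chondroadherin, at 1576, 1615 and 3451 against 2519.7, 2055 and 6400.2. Fmod, fibromodulin, was higher in each library, at 2703, 1998 and 1607 against 2146, 1822 and 960.0. Mgp, another vitamin K-dependent inhibitor of calcification, stood at 9560.1, 5517 and 14550.4 against 8078, 5422 and 9821. Of 18 genes for sulfation and glycosaminoglycan chains 7 were compared and 0 passed, and of 19 secretory pathway genes 17 were compared and 0 passed. Fn1, fibronectin, one of the 10 genes with the most UMIs in Ucma cells, stood at 3854, 4249.5 and 8978 against 2860.1, 2302 and 4645, and the others of these 10 included Col2a1, Sparc, Malat1, Col9a3 and Mgp.

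Of the 22 listed transcription factors, 6 were compared against Ucma-low cells and Mef2c alone passed, downwards, beside 0.450% of all genes. Sox5 stood at 90.5, 103 and 153 in Ucma and 97.6, 89.6 and 135 CPM in Ucma-low cells and Sox6 at 49.97, 45.8 and 51.1 against 46.2, 44.0 and 55.8, the partners of Sox9 in cartilage, without a steady direction. Runx2, the factor of hypertrophy and bone, was lower in the Ucma cells of each library, at 28.9, 39.6 and 45.6 against 42.5, 61.2 and 81.8. Of 10 articular cartilage genes, 0 reached 50 CPM in every library. Their sum was 388 CPM at 1M, 116 at 1.5M and 159.7 at 3M in Ucma cells and 489 at 1M, 254 at 1.5M and 84.9 at 3M in Ucma-low cells. Prg4, lubricin, which defines the joint surface, stood at 12.5, 5.77 and 15.2 CPM against 19.4, 128 and 29.7.

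Ucma cells were compared with cycling chondrocytes at 1.5M and 3M, the libraries with at least 20 cells of each class. Cycling cells, taken by UMIs not scaled to depth, were deeper, with medians of 19163 and 11463 UMIs against 12970 and 7600. Of 2348 genes, 15 were at least 2-fold higher in both (0.639%) and 144 lower (6.13%). Without 1.5M these became 131 and 339, and without 3M 33 and 165, since each count then rests on 1 library. Mki67 and Top2a chose the classes, and other genes of cell division differed with them: 18 of 18 compared G2/M genes were lower in Ucma cells, beside 6.13% of all genes, with a median log2 ratio of -5.22 against -0.01 over all genes, and 6 of 6 compared S phase genes, with a median of -2.86. Cdk1, the mitotic kinase, stood at 10.8, 11.5 and 2.17 CPM in the Ucma and 190.2, 318 and 300.4 in the cycling cells of 1M, 1.5M and 3M, and Pcna, the replication clamp, at 42.6, 37.5 and 60.8 against 113, 105 and 242.

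Against Ucma-low cells, which were held to the same limit on Mki67 and Top2a, the G2/M list had 1 compared gene and the S phase list 1, and neither passed. Of 13 cell cycle inhibitors 5 were compared, and all 5 were lower in the Ucma cells of each library, with a median log2 ratio of -0.34 beside 0.02 over all genes. Cdkn1c was past 2-fold, beside 0.450% of all genes. Cdkn1a, p21, stood at 426 CPM at 1M, 411 at 1.5M and 572 at 3M in Ucma, 623 at 1M, 469.6 at 1.5M and 655 at 3M in Ucma-low and 604 at 1M, 719 at 1.5M and 1230.3 at 3M in Ihh Col10a1 cells. Cdkn2c, p18, was highest in cycling cells, at 113, 203 and 239.8 against 16.8, 33.7 and 28.2 in Ucma cells. Of 7 compared genes of the resting zone list, Cytl1 and Clu were at least 2-fold higher in Ucma than in cycling cells in both libraries, beside 0.639% of all genes. Clu stood at 170.0 against 69.7 CPM at 1.5M and 101 against 18.4 at 3M. Of 7 compared hypertrophic genes, 0 passed against cycling cells, 3 being higher and 3 lower in the Ucma cells of both libraries. Their median log2 ratio was 0.12 beside -0.01 over all genes.

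Against Ihh Col10a1 cells, 22 of 2038 genes were at least 2-fold higher in the Ucma cells of all 3 libraries (1.08%) and 38 lower (1.86%). Without 1M there were 34 and 62, and without 1.5M 51 higher. Ihh Col10a1 cells were deeper, with medians of 18101, 17887 and 9585 UMIs against 11833, 12970 and 7600 at 1M, 1.5M and 3M. Besides the rule genes, 5 of 7 compared hypertrophic genes were lower, beside 1.86% of all genes, and none higher, with a median log2 ratio of -2.34 against 0.08 over all genes. Ibsp stood at 64.2 CPM at 1M, 185 at 1.5M and 162 at 3M in Ucma and 2839 at 1M, 1824 at 1.5M and 6129 at 3M in Ihh Col10a1 cells. Alpl stood at 226 at 1M, 209 at 1.5M and 175 at 3M against 926 at 1M, 798 at 1.5M and 1466 at 3M. Of 12 compared columnar genes, 0 were past 2-fold, while 10 were lower and 1 higher in the Ucma cells of each library. Their median was -0.40 beside 0.08 over all genes. Hypoxia and glycolysis genes, 11 compared, had 0 past 2-fold, and 9 were higher in the Ucma cells of each library, with a median of 0.28 beside 0.08 over all genes.

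Genes of other cells were followed as summed lists without the genes of the rule. The 9 osteoblast and osteocyte genes summed to 4226 CPM at 1M, 3718 at 1.5M and 2176 at 3M in Ucma cells, 5633, 4999 and 8409 in Ucma-low cells and 5351, 11654 and 5965 in the leukocyte reference, with Mepe at 0 in each library's Ucma cells. In 1 Ucma cell of 1M this list took 13.1% of the UMIs. The 6 erythroid genes summed to 4773 CPM at 1M, 1021 at 1.5M and 315 at 3M in Ucma cells and 3025, 196 and 2604 in Ucma-low cells, with up to 15.7% of the UMIs of 1 Ucma cell at 1M and 31.3% at 1.5M. Marrow stromal genes (7 genes) summed to 124 CPM at 1M, 347 at 1.5M and 89.1 at 3M, endothelial genes (6 genes) to 18.1 at 1M, 7.89 at 1.5M and 82.6 at 3M and mural genes (6 genes) to 34.9 at 1M, 46.7 at 1.5M and 20.6 at 3M. The part of such RNA in the results was not tested. Against Ucma-low cells, 3 of 11 perichondrium genes, 8 of 20 protease and inhibitor genes, 2 of 8 calcification inhibitors and 13 of 15 immediate early genes could be compared, and none of these passed. Of the 13 immediate early genes, 10 were lower in the Ucma cells of each library, and of 16 ribosomal protein genes 15 were higher, none of them past 2-fold. The median log2 ratios of these lists were -0.40 and 0.10, beside 0.02 over all genes.

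**Figure D3:**
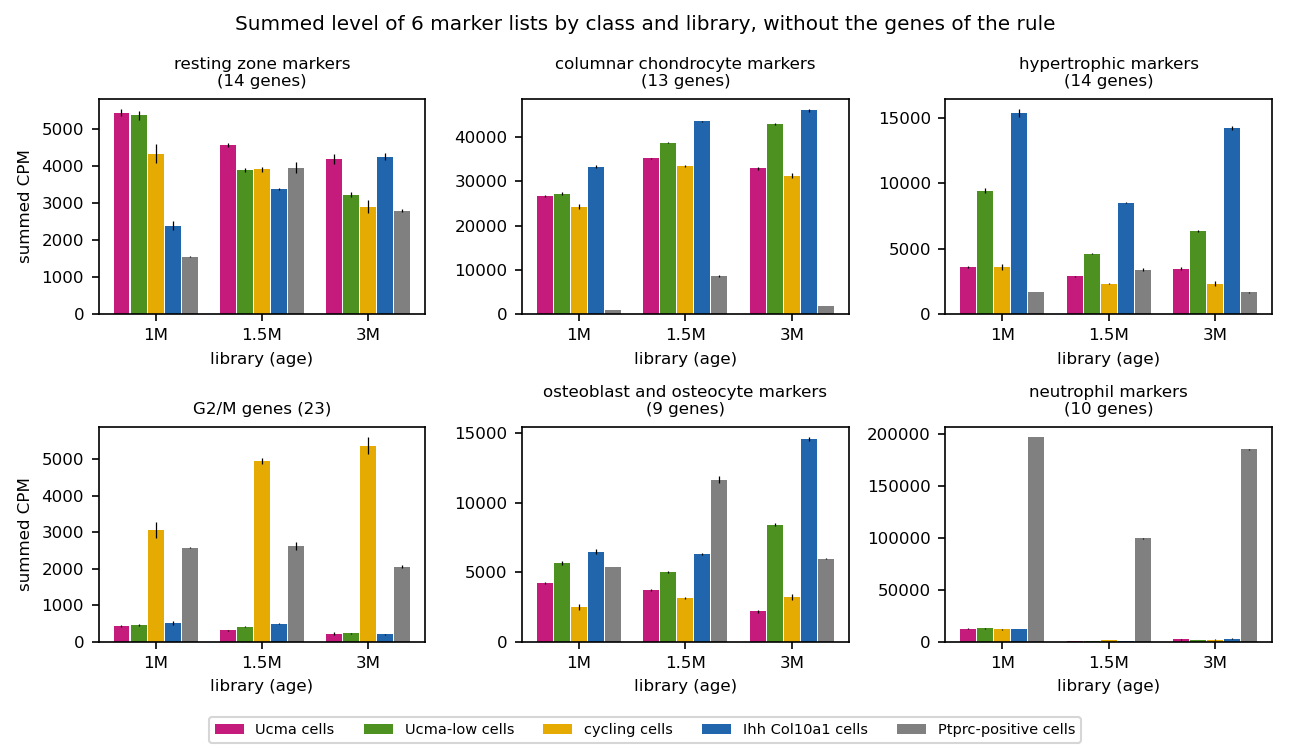
Summed CPM (y axis) of 6 gene lists in 5 classes of cells (colours) of the 3 libraries (x axis), without the genes of the rule, with 95% counting intervals. Hypertrophic genes are lower in Ucma than in Ucma-low and Ihh Col10a1 cells of each library, but not lower than in cycling cells. Resting zone genes are close in Ucma and Ucma-low cells at 1M, and neutrophil genes lie almost wholly in the Ptprc-positive reference.

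Ucma cells were not alike. After thinning to 3000 UMIs, the variance over cells divided by the mean, which is 1 for pure counting error, ranked the listed genes by its lowest value over the libraries. It stood at 64.7, 51.5 and 70.3 for Mgp, highest of them, and 60.3, 45.1 and 81.5 for Spp1 at 1M, 1.5M and 3M. Mgp had medians of 48.1, 24.0 and 84.8, 90th percentiles of 245, 164 and 331 and highest values of 794, 1029 and 1154 per 10000 UMIs, a broad spread. Next came Bglap (132, 9.404 and 9.09), Apoe (10.5, 7.71 and 9.05), the immediate early gene Fos (12.5, 10.8 and 7.57), Cytl1 (5.84, 30.9 and 22.1) and Igfbp7 (6.45, 4.37 and 5.31). Bglap, osteocalcin, is a bone gene that stood at 2077, 4209 and 2578 CPM in the leukocyte reference, and near-identical Bglap genes can share reads. Cytl1 had a UMI in 11.96% (7.65 to 17.5) at 1M, 10.3% (7.79 to 13.3) at 1.5M and 31.0% (22.8 to 40.3) at 3M of thinned Ucma cells, with highest values of 46.4, 228 and 174 per 10000, so its summed level came from a minority of cells. Matn3, by contrast, had a UMI in 98.9%, 99.4% and 95.7% of thinned cells, with medians of 25.4, 32.1 and 21.2 per 10000.

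**Figure D4:**
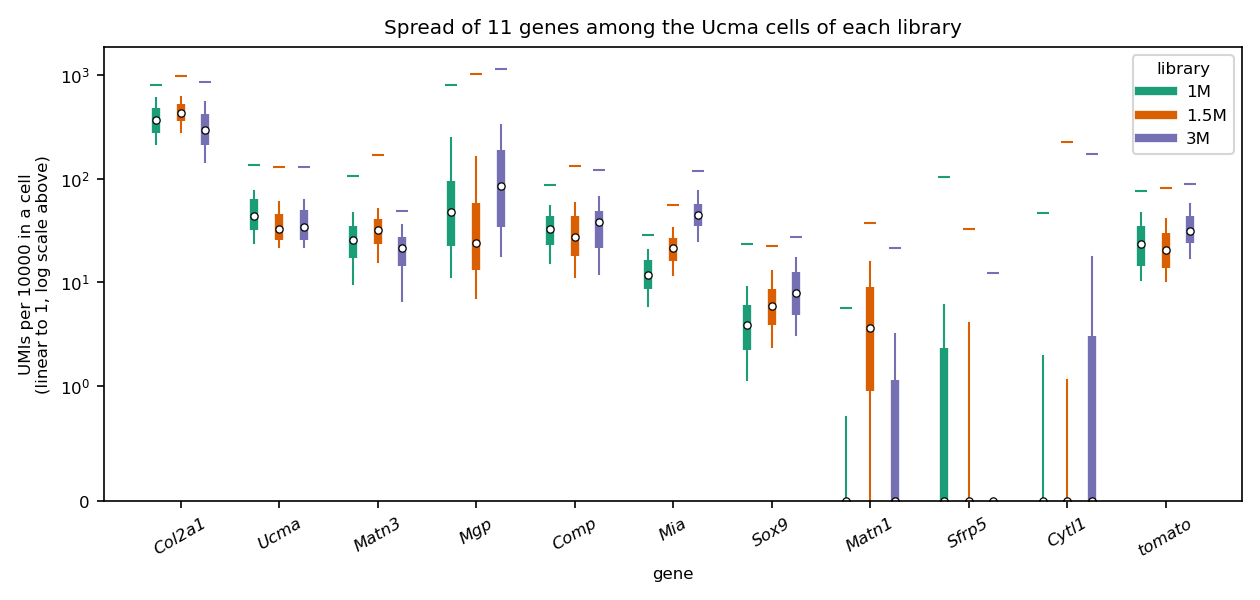
UMIs per 10000 in a cell (y axis, linear to 1 and logarithmic above) of 11 genes (x axis) among the Ucma cells of each library, with the median as an open circle, the interquartile range as a thick bar, the 10th to 90th percentile as a thin line and the highest cell as a dash. Col2a1, Ucma and Matn3 are present in nearly every cell, while Sfrp5 and Cytl1 have medians of 0 and highest cells far above.

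Ucma cells of different ages were compared by their summed UMIs, 1.5M over 1M and 3M over the mean of 1M and 1.5M, which share libraries. Of 2529 genes, 98 were at least 2-fold higher at 1.5M than at 1M (3.88%) and 104 lower (4.11%). Of 2501 genes, 79 were at least 2-fold higher at 3M (3.16%) and 97 lower (3.88%). Of these genes, 26 of 98, 61 of 104, 4 of 79 and 50 of 97 stood higher in the leukocyte reference than in the Ucma cells of the higher library, and were left out of the ranking by age. All 10 neutrophil genes were among those lower in both comparisons. Their sum was 12557 CPM at 1M, 231 at 1.5M and 2075 at 3M, so it was lower at 3M than the mean with 1M but higher than at 1.5M. A few of the genes left out are named below as members of a list, with the reference beside them. Every age difference is a difference between single libraries and cannot be told apart from batch, gate and dissection.

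Of the 11 secreted Wnt inhibitors, the 3 that could be compared between 1M and 1.5M were highest at 1M. Sfrp5 stood at 213 CPM at 1M, 95 at 1.5M and 34.8 at 3M (log2 ratio of 1.5M over 1M -1.16 (-1.34 to -0.99)). Wif1 stood at 550.1 at 1M, 90.3 at 1.5M and 168 at 3M (-2.61 (-2.75 to -2.47)). Notum stood at 88.3 at 1M, 40.5 at 1.5M and 66.3 at 3M (-1.12 (-1.39 to -0.85)). All 3 passed downwards at 1.5M, beside the 4.11% of all genes, and Sfrp5 passed again at 3M (log2 -2.15). In Ucma-low cells Sfrp5 stood at 217, 41.8 and 9.20 CPM, Wif1 at 797, 129 and 80 and Notum at 93.8, 31.0 and 32.5, highest at 1M as well.

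Growth factor genes differed in both directions. Of 7 FGF and IGF genes compared between 1M and 1.5M, Igf1 and Igf2 were at least 2-fold lower at 1.5M and the binding protein genes Igfbp4 (67.2 CPM at 1M, 148 at 1.5M) and Igfbp5 (14.2 at 1M, 67.7 at 1.5M) higher, and of 9 BMP and TGF-beta genes Bmp2 was lower and Gdf10 (16.4 at 1M, 62.8 at 1.5M) higher. Over all genes compared, 3.88% were higher and 4.11% lower. The leukocyte reference held 220.4 and 316 CPM of Igfbp4 and 64.8 and 206 of Igfbp5 at 1M and 1.5M, above the Ucma cells. Igf2 stood at 58.6 CPM at 1M, 9.26 at 1.5M and 14.1 at 3M and Igf1 at 84.9 at 1M, 42.3 at 1.5M and 10.9 at 3M, the latter beside 52.8, 76.3 and 72.8 in the leukocyte reference. Pthlh, too sparse to compare, stood at 18.1 CPM (13.0 to 24.5) at 1M, 10.0 CPM (7.75 to 12.7) at 1.5M and 2.17 CPM (0.263 to 7.85) at 3M. Bmp2 stood at 70.6 at 1M, 19.7 at 1.5M and 30.4 at 3M. The imprinted RNA H19 stood at 865 at 1M, 573 at 1.5M and 205 at 3M and Ccnd2, cyclin D2, at 113 at 1M, 82.4 at 1.5M and 18.5 at 3M, while Ccnd1 stood at 103 at 1M, 88.9 at 1.5M and 134 at 3M, highest at 3M. Ccnd2 stood at 53.4, 70.8 and 47.7 in the reference.

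Matrix genes differed one by one. Matn1, another matrilin, ranked first among genes higher at 1.5M than at 1M, at 20.2 CPM (14.9 to 26.9) at 1M, 646 CPM (627 to 666) at 1.5M and 122 CPM (100.2 to 146) at 3M, a log2 ratio of 4.997 (4.58 to 5.44) at 1.5M over 1M. A Matn1 UMI was found in 5.98% (3.02 to 10.4) at 1M, 59.4% (55.0 to 63.7) at 1.5M and 19.8% (13.0 to 28.3) at 3M of thinned Ucma cells. Ucma-low cells stood at 67.0 CPM at 1M, 738 at 1.5M and 176 at 3M and the leukocyte reference at 2.82 at 1M, 159 at 1.5M and 7.54 at 3M. Cytl1 was highest at 3M, at 72.4 CPM (61.8 to 84.2) at 1M, 111 CPM (103 to 119.6) at 1.5M and 789.7 CPM (733 to 849) at 3M, with 2.23, 16.3 and 69.2 in the reference. Mia, a small secreted cartilage protein, stood at 1259 at 1M, 2246 at 1.5M and 4887 at 3M and Chad at 1576 at 1M, 1615 at 1.5M and 3451 at 3M, both past 2-fold at 3M. Omd, osteomodulin, stood at 274 at 1M, 43.9 at 1.5M and 48.9 at 3M, Cilp2 at 221 at 1M, 45.4 at 1.5M and 53.2 at 3M and Rbp4, a retinol carrier, at 429.9 at 1M, 61.9 at 1.5M and 15.2 at 3M, all highest at 1M. Matn3 and Ucma differed less, at 2795 at 1M, 3357 at 1.5M and 2162 at 3M and 4836 at 1M, 3743 at 1.5M and 3861 at 3M.

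Protease inhibitor genes of the Serpina1 cluster, alpha-1 antitrypsin genes best known from liver, ranked first among genes higher at 3M. Serpina1a stood at 31.0 CPM (24.3 to 39.1) at 1M, 59.3 CPM (53.6 to 65.5) at 1.5M and 1106 CPM (1039 to 1176) at 3M. Serpina1d stood at 48.2 at 1M, 70.6 at 1.5M and 828 at 3M and Serpina1b at 81.8 at 1M, 81.2 at 1.5M and 805 at 3M. Their log2 ratios of 3M over the mean of the younger libraries were 4.61, 3.80 and 3.30. The leukocyte reference at 3M held 20.6, 29.4 and 10.4 CPM. Ucma-low cells held 89.4 CPM at 1M, 18.7 at 1.5M and 939 at 3M of Serpina1a, and the copies are alike enough to share reads, so their split is uncertain. F3 stood at 53.8 at 1M, 73.8 at 1.5M and 268 at 3M and F5, coagulation factor V, at 29.3 at 1M, 36.6 at 1.5M and 137 at 3M, both past 2-fold at 3M.

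The metallothioneins Mt1 and Mt2, which bind zinc and copper, were lowest at 1M, at 672 CPM at 1M, 3818 at 1.5M and 5390.0 at 3M for Mt1 and 442 at 1M, 1964 at 1.5M and 3286 at 3M for Mt2. They were likewise higher at 1.5M and 3M in the leukocyte reference (284, 1065 and 777 for Mt1), where Mt1 was highest at 1.5M. Of 17 hypoxia and glycolysis genes compared between 1M and 1.5M, Pgk1 and Car12 were at least 2-fold higher at 1.5M, beside 3.88% of all genes. At 3M, 3 of 16 were at least 2-fold lower, beside 3.88% of all genes, Gapdh at 1649.8 at 1M, 1437 at 1.5M and 764 at 3M. Pfkl stood at 109 at 1M, 107 at 1.5M and 48.9 at 3M and Pgk1 at 33.2 at 1M, 89.2 at 1.5M and 11.9 at 3M. Hk2 was at least 2-fold higher, beside 3.16% of all genes, at 81.4 at 1M, 119 at 1.5M and 263 at 3M. Of the 16, 14 lay on the lower side, with a median log2 ratio of -0.69 beside -0.07 over all genes. The share of all genes on that side is not given. The transcription factor Klf2 and the membrane protein Itm2a were lower at 3M, Klf2 at 1007 at 1M, 747 at 1.5M and 275 at 3M and Itm2a at 1341 at 1M, 872 at 1.5M and 262 at 3M. Rps18-ps3, Gm10036 and Gm10263, a pseudogene and 2 predicted genes, were higher at 3M and can share reads with related genes. Rps18-ps3 stood at 84.4, 99.1 and 575 CPM, beside 62.4, 79.0 and 417 in the leukocyte reference. Gm10036 stood at 70.6, 78.3 and 313, beside 52.0, 64.0 and 211 there, and Gm10263 at 13.8, 24.9 and 80.4, beside 9.29, 25.9 and 77.9. The listed ribosomal protein genes, 16 compared, had 0 past 2-fold.

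Of 8 hypertrophic genes compared between 1M and 1.5M, 4 (Panx3, Mmp13, Ibsp, Runx3) were at least 2-fold higher in the Ucma cells of 1.5M, beside 3.88% of all genes, and Spp1 lower, beside 4.11%. Mmp13, the collagenase of the hypertrophic zone, stood at 23.3 CPM at 1M, 124 at 1.5M and 42.4 at 3M and Runx3 at 42.6 at 1M, 102 at 1.5M and 99.9 at 3M. The 14 hypertrophic genes outside the rule summed to 3605 CPM at 1M, 2861 at 1.5M and 3463 at 3M in Ucma cells. In the leukocyte reference they summed to 1661 at 1M, 3392 at 1.5M and 1652 at 3M, above the Ucma cells at 1.5M. The part of free RNA in these levels was not tested. At 1.5M the library also held the largest number of Ihh Col10a1 cells, 776, and Col10a1 stood at 62.9 CPM at 1M, 320.1 at 1.5M and 32.6 at 3M in Ucma cells and 32.2 at 1M, 1419 at 1.5M and 126 at 3M in the leukocyte reference. Without thinning, a Col10a1 UMI was found in 9.78% of Ucma cells at 1M, 90.9% at 1.5M and 16.8% at 3M, against 11.04%, 85.5% and 11.5% of the leukocyte reference. Thinned to 3000 UMIs, it was found in 2.72%, 47.1% and 6.90% against 2.70%, 52.7% and 5.36%. The shares in both lay close together in each library. Postn, an extracellular protein of periosteum, stood at 26.7 at 1M, 71.6 at 1.5M and 8.69 at 3M against 95.5 at 1M, 154 at 1.5M and 61.5 at 3M in that reference. Immediate early genes, 14 compared, had Junb (395 at 1M, 1121 at 1.5M and 706 at 3M), Zfp36 and Socs3 past 2-fold at 1.5M over 1M, and Atf3 and Zfp36 past it downwards at 3M. The share over all genes was 3.88% in each case. The leukocyte reference held 77.6, 272 and 179 CPM of Zfp36 against 47.4, 245 and 61.9 in Ucma cells.

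**Figure D5:**
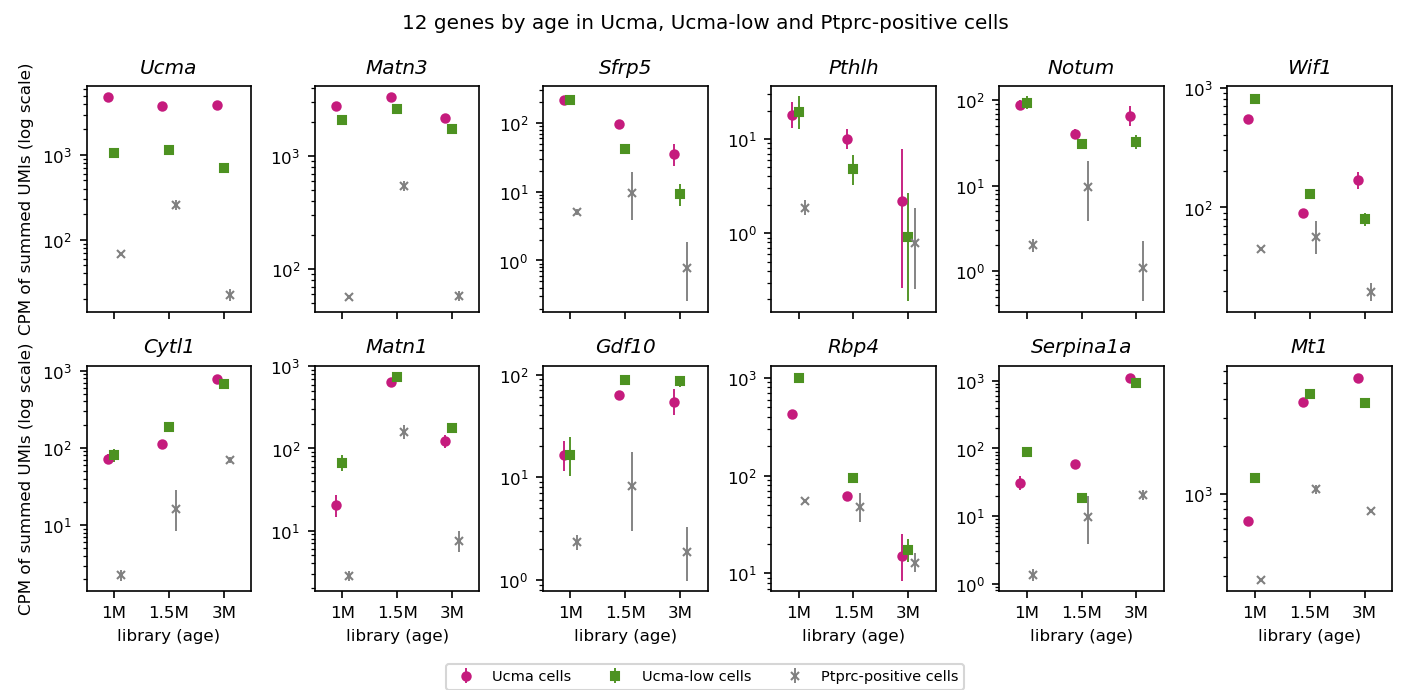
CPM of summed UMIs (y axis, log scale) of 12 genes in Ucma, Ucma-low and Ptprc-positive cells of the libraries of 3 ages (x axis), with 95% counting intervals. Sfrp5, Pthlh and Rbp4 of Ucma cells lie lowest at 3M, Serpina1a and Cytl1 highest at 3M, and Mt1 has the same order of 1M below 1.5M in all 3 classes.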

How the data were processed

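Deposited tables held raw UMI counts per gene and cell, which the authors made with Cell Ranger 3.0.2 from 10x Chromium libraries on a modified mm10 reference, before filtering with Seurat. The annotation release is not given in the sources used here. Library totals and median depths stand in the report. Cells were filtered and assigned to classes by the limits given there, and counts were summed per class and library and scaled to CPM. Intervals are exact 95% Poisson, conditional or Clopper-Pearson intervals and cover counting error only. Python 3.11.15, numpy 2.4.6, scipy 1.17.1, pandas 2.3.3 and scanpy 1.11.5 (doublet scores) were used, and the comparison code was tested on simulated data. No test was made, since each age had 1 library and the classes were chosen on the counts compared. The members and gene lists were chosen with earlier results of these data known. Genes named were those of the rule, the markers and the lists, the 15 highest and 15 lowest against Ucma-low cells by the log2 ratio nearest 0 with at least 50 CPM, the 10 highest and lowest per age comparison apart from genes higher in Ptprc-positive cells, the 10 with most CPM, and tomato. The 36 alternatives are in the closing section, with 1 more chosen after seeing the data.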

Additional observations from a re-analysis of the deposited data

Results flagged for a closer look

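Some genes stood on opposite sides of Ucma-low cells in different libraries, and the difference between libraries was not tested. The log2 ratio of Ucma over Ucma-low cells was 1.66 at 1M and -2.63 at 3M for the osteocalcin gene Bglap, and 1.55 and -2.65 for its near-identical neighbour Bglap2, with which it can share reads. It was 2.18 at 1.5M and -2.91 at 3M for Hbb-bs, 2.56 and -2.70 for Hbb-bt, 2.59 and -3.13 for Hba-a1, and 2.60 and -3.50 for Hba-a2, the globin genes of red cells, whose copies can also share reads. In 1 Ucma cell each, osteoblast and osteocyte genes took 13.1% of the UMIs at 1M and erythroid genes 31.3% at 1.5M. Serpina1a stood at -1.53 at 1M and 1.67 at 1.5M. In the 16M library, which entered no comparison, 4 cells met the limits for chondrocytes and 89 filtered cells held a Ucma UMI.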

How the results depend on the processing

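No paired analysis was possible because no result comes from a test: each age had 1 library, and the classes, set side by side within each library, were chosen on the same counts. Over the alternatives, 144 values of named genes moved beyond their counting interval and 506 did not, and no called value changed sign. Leaving out 1 library gave 3 to 10 genes higher and 9 to 20 lower than in Ucma-low cells, 33 to 131 and 165 to 339 against cycling cells, and 28 to 51 and 45 to 62 against Ihh Col10a1 cells. Ucma at 10 per 10000 gave 230, 801 and 234 cells at 1M, 1.5M and 3M, and at 40 gave 103, 175 and 43. Col2a1 at 300 gave 124, 437 and 57, thinning 149 at 1M and 597 at 1.5M, allowing 1 Ihh UMI 590 at 1.5M, and leaving out cells with blood RNA 0 at 1M. A floor of 10 CPM gave 6 higher and 15 lower against Ucma-low cells, 70 and 457 against cycling, 61 and 91 against Ihh Col10a1, 331 and 413 at 1.5M over 1M and 320 and 508 at 3M, with 17 S phase genes lower than in cycling cells and 5 glycolysis genes lower at 3M. A floor of 200 CPM gave 3 lower against Ucma-low, 7 and 47 against cycling, 10 and 13 against Ihh Col10a1, 41 and 34 at 1.5M and 34 and 33 at 3M. At that floor 1 hypertrophic gene was lower than in Ucma-low cells, 1 resting zone gene higher than in Ihh Col10a1 cells, 11 G2/M and 1 S phase genes lower than in cycling cells, 0 hypertrophic genes higher at 1.5M and 1 glycolysis gene lower at 3M. Col2a1 at 300 gave 6 higher against Ucma-low, 28 against cycling and 1 resting zone gene against Ihh Col10a1. Ucma at 40 gave 38 higher against cycling, 153 higher at 3M, 1 resting zone gene and 1 glycolysis gene. Means per cell gave 24 higher against cycling. Leaving out blood RNA gave 10 higher against Ucma-low and 34 and 61 against Ihh Col10a1, with 0 cells left at 1M. Thinned to 5000 UMIs, Sfrp5 was found in 32.1% at 1M and 19.2% at 1.5M, Cytl1 in 13.6% and Matn1 in 68.9% at 1.5M. Subtracting the Ptprc-positive profile, chosen after seeing the data, moved no count by age over 1.5 times. The cause of these changes was not tested, apart from fewer cells or genes compared. Depth limits sparse genes such as Pthlh.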
